A study of Drosophila melanogaster with 9 samples.

Results

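Transcripts that came down with the RNA-binding protein ORB2 were compared with those retained by an unrelated antibody fragment in extracts of Drosophila melanogaster embryos, and were followed class by class across the maternal mRNA population. The comparison used 6 of the 9 libraries of the study. Genes averaging 10 or more normalized counts in those 6 libraries were kept, 6318 of the 6440 listed. All libraries came from wild type embryos collected 0 to 3 h after egg laying. In the ORB2 IP group (3 libraries) the extract was precipitated with the synthetic Fab fragment anti-ORB2 E8 on anti-FLAG beads, and in the control IP group (3 libraries) with a Fab against EGFR named C1. The labels number the replicates but do not say whether they came from separate embryo collections, so p-values measure only the spread between these libraries, which may be technical.

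ORB2 is a fly member of the CPEB family, proteins that bind mRNA mostly through elements in the 3′ untranslated region (3′UTR) and regulate poly(A) tail length and translation. ORB2 is best known in the nervous system, where its self-assembly is tied to long-term memory, and it also acts in the germ line and in asymmetric divisions. The early embryo runs on mRNA loaded by the mother, which is translated, localized, deadenylated or degraded while its own genome is mostly silent. A RIP-seq experiment counts the RNA recovered with a protein. A value here is therefore a normalized count from a precipitate and not a level in the embryo.

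The 6 libraries had normalized-count totals of 3952548 to 5368634 in ORB2 IP and 3504705 to 3747319 in control IP, with 7 to 108 and 5 to 11 of the listed genes at 0. The transcript of orb2, the gene of the precipitated protein, had normalized counts of 6661, 9610 and 8127 in ORB2 IP, against 49.7, 62.8 and 24.2 in control IP. The ORB2 IP libraries stood far above the control IP libraries (log2 fold change 7.54 ± 0.29 (SE), adjusted p = 6.46e-09). These counts are of recovered RNA and do not measure the protein in the precipitate. ORB2 IP replicate 3 lay nearer to control IP than its partners did. Its Spearman correlations with the control IP libraries, across genes, were 0.925 to 0.95, against 0.818 to 0.868 for replicates 1 and 2. Genes at least 8-fold higher in ORB2 IP held 28.4%, 39.5% and 30.2% of the normalized counts in ORB2 IP, against 0.228%, 0.256% and 0.231% in control IP. None of the 62 markers of eggshell, adult or later embryonic tissues was among the genes listed. They have no values here, so whether the extracts held such tissue cannot be judged.

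Of the tested genes, 20.8% were called higher and 21.6% lower in ORB2 IP (limma on log2 values, Benjamini-Hochberg adjusted p below 0.05). At least 2-fold calls made up 7.93% higher and 6.84% lower, and the groups did not overlap for 27.6% of genes upward and 28.3% downward. These shares are the background for every count below. Gains and losses throughout are relative to control IP and not to input. With 1 library left out, the number of higher genes, 1316, fell to 858 when ORB2 IP replicate 2 was left out and to 716 when control IP replicate 3 was. The number of lower genes, 1366, ranged from 967 to 1571. Small counts moved easily. Of 21 class counts of 1 or 2 members, 17 changed by more than 1.5 times when some 1 library was left out, so such counts are given without those values. Functional lists put 2071 of the tested genes (32.8%) into 51 classes, 186 of them into more than 1. A 52nd list held genes known only by a CG number. Of the 52 lists, 31 had a median log2 fold change (ORB2 IP over control IP) above 0 and 21 below 0, around a median of 0.001 over all tested genes. Class medians below are given minus that value. The direction of a class holds relative to all genes, since scaling libraries to equal totals shifted the median of all genes by -0.355 and TPM values shifted it by 0.24. With equal totals 6.06% of genes were higher and 34.5% lower, so that 14.9% of calls were higher, against 49.1% as deposited. The share was 65.7% with TPM values and 64.6% with equal upper quartiles. The gene said to gain or fall most in a class is the called member with the largest change among those averaging at least 100 normalized counts with the groups apart. Other named genes were chosen as examples after their values were seen, and a number in brackets after a gene is its log2 fold change, for a member that passed the test unless stated. Among the genes whose library values are given below, orb2, osk, eIF4G2, ctrip and Z600 overlap another gene on the same strand. An antisense gene overlaps osk, nos, ovo, cact, piwi, ATPsyndelta, SdhA, ctrip, Rpb11, HP1c, His3.3A, DNApol-delta, Msh6, Zw10, DCTN3-p24, tai and Patronin. How reads shared between overlapping genes were assigned is not given in the sources used here.

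**Figure D1:**
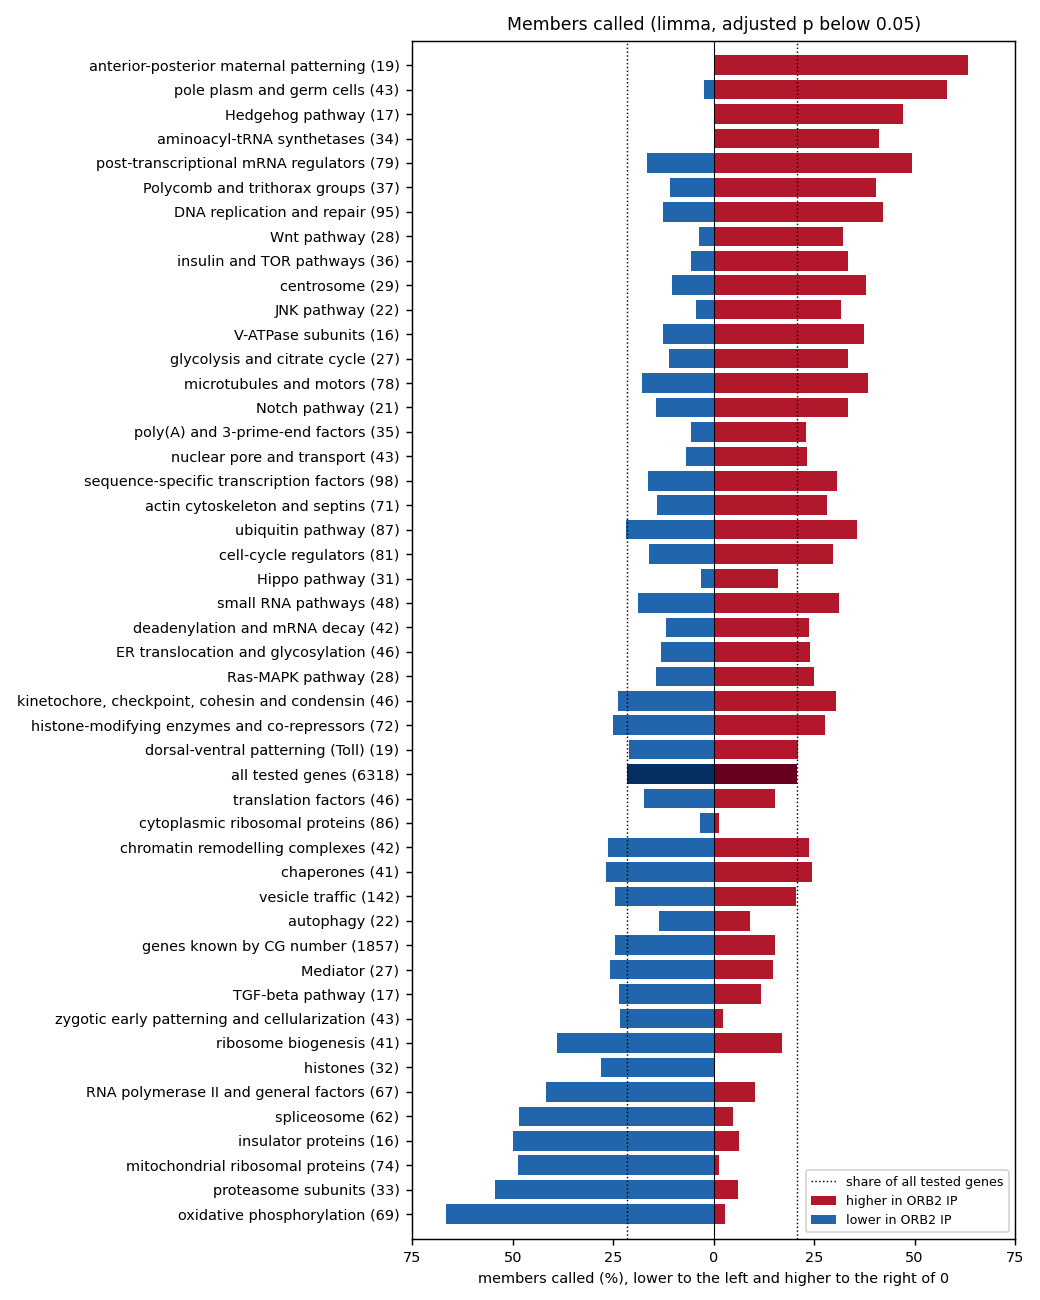
Percent of tested members called higher (bars to the right, red) or lower (bars to the left, blue) in ORB2 IP against control IP, for each class reported here with at least 15 tested members. Class sizes are in brackets, and dotted lines mark the shares of all tested genes, 20.8% and 21.6%. Maternal patterning and germ-cell genes lie at the top and oxidative phosphorylation at the bottom.

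Transcript length moved with the outcome across the whole table, and its values belong beside each class. All lengths are of the annotated transcript of a gene with the longest 3′UTR, which need not be the one present in the embryo. With genes in 5 groups of equal size by transcript length, in the shortest (288 to 1139 nt) 2.1% were higher and 46.9% lower, whereas in the longest (3745 to 23040 nt) 46.6% were higher and 3.1% lower. The median log2 fold change of the groups ran -0.61, -0.29, 0.06, 0.23 and 0.52 from short to long. The trend with 3′UTR length was flatter, with 8.0% higher and 32.2% lower in the shortest group and 35% higher and 11.8% lower in the longest. Coding length behaved like transcript length, at 2.8% higher and 47.3% lower in the shortest group and 46% higher and 2.1% lower in the longest. Abundance ran the other way. In the group lowest in input (1.303 to 12.48 TPM) 30% were higher and 5.1% lower, and in the highest 9.0% were higher and 43.8% lower. Transcript length and mean input TPM were themselves related (Spearman correlation -0.456 across 6272 genes, which are not independent replicates).

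The length relation was present in each ORB2 IP library and unequal among control IP libraries. Spearman correlation between transcript length and a gene's log2 value relative to its control IP mean was 0.551, 0.497 and 0.405 in ORB2 IP, against -0.073, 0.367 and -0.2 in control IP. Control IP replicate 2 thus also leaned toward long transcripts relative to the other control libraries. The genes at least 2-fold higher had a median transcript of 3748 nt, a 3′UTR of 668 nt and a coding length of 2330 nt. Those at least 2-fold lower had medians of 1030, 154 and 600 nt, and the remaining genes 2022, 309 and 1308 nt. With the transcript of the longest coding sequence taken instead, the medians were 3671, 514 and 2460 nt for higher genes. They were 1023, 147 and 603 nt for lower genes and 1986, 272 and 1350 nt for the remaining genes. The part of length in any class result was not tested. Counts and medians of the classes are therefore also given after a smooth trend on transcript length had been removed from every library, an alternative under which 17.6% of genes were higher and 18.5% lower.

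**Figure D2:**
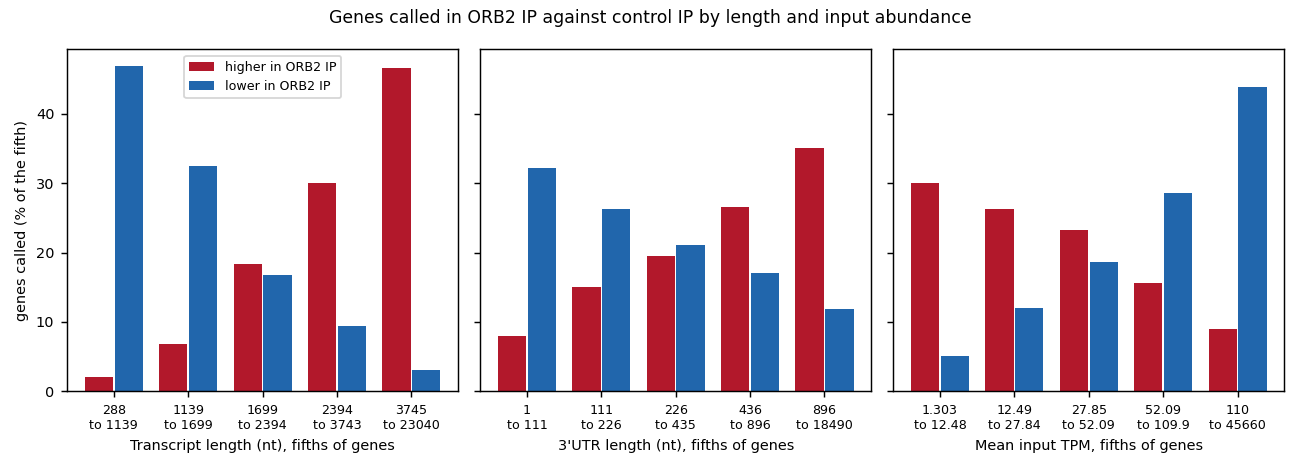
Percent of genes called higher (red) or lower (blue) in ORB2 IP against control IP, in 5 equal groups by transcript length, 3′UTR length and mean input TPM (ranges under the bars). Calls pass from mostly lower to mostly higher with length, from 46.9% lower in the shortest to 46.6% higher in the longest transcripts, and the other way with input abundance.

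Maternal transcripts that pattern the anterior-posterior axis gained most often of all classes with at least 15 members. Of 19 tested, 12 were higher (63.2%) and 0 lower. The class median was 0.73, and 9 members were still called higher and 0 lower with the length trend removed (median 0.59). By library, the median over members relative to each gene's control IP mean was 0.81, 0.98 and 0.41 in ORB2 IP, against 0.09, 0.15 and -0.33 in control IP. The ORB2 IP medians lay above all control IP medians, with replicate 3 the lowest of the 3, and the control IP libraries spread almost as widely as the ORB2 IP libraries.

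Within this class the largest gain was that of pum (chr3R:9066343-9237682, minus strand in BDGP6.54), which encodes Pumilio, a repressor that binds 3′UTRs and acts with Nanos on hunchback mRNA. Its normalized counts were 7292, 9125 and 5455 in ORB2 IP, against 527, 513 and 446 in control IP. Every ORB2 IP library lay far above every control IP library (log2 fold change 3.85 ± 0.21 (SE), adjusted p = 1.41e-07). The posterior determinants followed at smaller size. For osk (chr3R:8935126-8938395, plus strand), whose product assembles the pole plasm, the counts were 1945, 1750 and 994 in ORB2 IP, against 708, 821 and 357 in control IP, and the groups did not overlap (log2 fold change 1.34 ± 0.31 (SE), adjusted p = 0.0071). Counts of nos (chr3R:19157238-19160202, plus strand), the posterior translational repressor, were 2090, 1648 and 1067 in ORB2 IP, against 947, 775 and 448 in control IP. Here too the groups were apart, ORB2 IP replicate 3 being the nearest to control IP (log2 fold change 1.16 ± 0.29 (SE), adjusted p = 0.0094).

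Other patterning genes that were called included bru1, a translational repressor of osk (log2 fold change 1.26), exu (1.01) and swa (0.87), which localize bcd mRNA, and the terminal-system genes clos (1.49) and fs(1)N (1.14), which act in the eggshell layer that localizes torso signalling. The 7 members that did not pass were hb, brat (0.34), stau (0.33), tor (0.31), cad (0.18), gro (0.08) and bcd. For bcd, the anterior morphogen, the counts were 209, 219 and 216 in ORB2 IP, against 223, 219 and 219.8 in control IP, nearly the same in all 6 libraries (log2 fold change -0.04 ± 0.16 (SE), adjusted p = 0.858). For hb they were 393, 508 and 434 in ORB2 IP, against 320, 366 and 341 in control IP, so that the groups did not overlap although the test was not passed (log2 fold change 0.37 ± 0.17 (SE), adjusted p = 0.093).

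Germ-plasm and germ-cell transcripts gained at a similar rate. This list shares members with the patterning list, osk and bru1 among them, so the results are not separate. Of 43 tested members, 25 were higher (58.1%) and 1 lower, with a median of 0.73. With the length trend removed 24 were higher and 3 lower (median 0.58). The library medians were 0.89, 0.82 and 0.45 in ORB2 IP, against -0.01, 0.10 and -0.10 in control IP. All ORB2 IP medians lay above all control IP medians, replicate 3 being the nearest. The germ-line transcription factor ovo (chrX:5048273-5070929, plus strand) had 722, 861 and 453 in ORB2 IP, against 268, 306 and 165 in control IP, with no overlap between groups (log2 fold change 1.45 ± 0.27 (SE), adjusted p = 0.0029). Called members, given as examples, included capu, an actin nucleator needed for osk localization (1.54), orb, the other fly CPEB gene (1.22), the Tudor-domain scaffold tud (1.19), the RNA helicase vas (0.93), the transcriptional silencer pgc (0.73) and gcl, which acts in germ-cell formation (0.76). The member called lower was tej, a Tudor-domain gene of the piRNA pathway (-0.91). The remaining 17 members were not called, and 33 of the 43 had a fold change above 0. Extracts were of whole embryos, so the values do not say from which cells the recovered RNA came. As normalized counts from a precipitate they measure neither the number of cells of a type nor RNA per cell.

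The dorsal-ventral (Toll) genes split between directions. Of 19 tested members 4 were higher and 4 lower, close to the background share both ways, and 4 higher and 7 lower (median -0.05) with the length trend removed. The gains included a pair that meet in the cytoplasm. The inhibitor cact (chr2L:16313036-16326207, minus strand) had 10460, 17976 and 15063 in ORB2 IP, against 1894, 2179 and 2530 in control IP. Its counts in ORB2 IP were several times the control IP counts in every library (log2 fold change 2.69 ± 0.25 (SE), adjusted p = 4.35e-05). The transcription factor it holds, dl, rose by 1.99 on the log2 scale. Downstream kinase pll (-0.70), its partner tub (-0.91) and the SUMO-conjugating enzyme lwr (-1.22) fell, and the receptor Tl (0.55) and its ligand spz (0.25) did not pass the test.

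Genes for mRNA regulators themselves were frequent among the gains. Of 79 post-transcriptional regulators, 39 were higher (49.4%) and 13 (6 leaving out control IP replicate 2, 5 leaving out control IP replicate 3) lower, with a median of 0.53. Removing the length trend left 27 higher and 20 lower, with a median of 0.16. These transcripts were long, with a median of 4003 nt and a 3′UTR of 1439 nt. By library the medians were 0.32, 0.79 and 0.33 in ORB2 IP, against -0.06, 0.09 and -0.03 in control IP, with ORB2 IP replicate 2 the highest. Beyond orb2 and pum, heph (chr3R:31846987-32015520, minus strand), a polypyrimidine-tract-binding protein gene, had 20932, 43083 and 32158 in ORB2 IP, against 817, 963 and 1304 in control IP. All ORB2 IP counts were over 10 times the control IP counts (log2 fold change 4.93 ± 0.29 (SE), adjusted p = 3.28e-07). Further gains were Rbfox1 (2.76), larp (1.33), Atx2 (1.20), Fmr1, the fly FMRP gene (1.11), cup, an eIF4E-binding repressor (1.04), msi (1.04) and pAbp, the cytoplasmic poly(A)-binding protein gene (0.96). The losses named next are likewise examples, not a group that moved together. The hnRNP genes Hrb98DE (-0.87) and Hrb87F (-0.70), the quaking-related genes qkr54B (-0.88) and qkr58E-1 (-0.85), and lark (-0.99) all fell.

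Enzymes that act on the poly(A) tail and 3′ end stayed near background upward and below it downward. Of 35 tested, 8 (5 leaving out ORB2 IP replicate 1, 5 leaving out control IP replicate 3) were higher and 2 (4 with the replicate block) lower, and the median was -0.03. The class gave 6 higher and 5 lower (median -0.12) with the length trend removed. The cytoplasmic poly(A) polymerase wisp (chrX:11893943-11899920, plus strand), needed for maternal translation, had 1617, 2009 and 1511 in ORB2 IP, against 889, 1016 and 662 in control IP, and the groups did not overlap (log2 fold change 1.01 ± 0.20 (SE), adjusted p = 0.0037). Integrator subunits IntS1 (1.24) and IntS2 (1.23) rose too, and the phosphatase gene Ssu72 (-0.65) fell most. Among 42 genes for deadenylation and decay, 10 (6 leaving out ORB2 IP replicate 2, 4 leaving out control IP replicate 3) were higher and 5 lower, with a median close to 0, and 6 higher and 9 lower (median -0.12) with the length trend removed. The exonuclease gene Nbr gained most (1.05). Upf1 (0.95) and Upf2 (0.75) of nonsense-mediated decay and the exonuclease pcm (0.75) rose, whereas Upf3 (-1.06), the decapping-linked LSm3 (-1.41) and the exosome subunits Rrp46 (-1.27) and Csl4 (-1.19) fell. Of the 10 exosome subunits tested, 1 was higher and 3 lower, and 2 and 1 with the length trend removed.

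The 8 genes of m6A methylation did not move together. The writer-complex subunit fl(2)d (chr2R:13819624-13824553, minus strand) had 41612, 86880 and 65304 in ORB2 IP, against 589, 654 and 603 in control IP, the widest separation in the class, in every library (log2 fold change 6.65 ± 0.28 (SE), adjusted p = 1.12e-08). Another writer subunit, Mettl14, fell (-0.95), as did the reader Ythdf (-0.77). Mettl3 (0.10), vir (0.20), Hakai (-0.35), nito (-0.36) and Ythdc1 (-0.40) did not pass the test. As a class they gave 1 higher and 2 lower, and 1 higher and 4 lower (median -0.49) with the length trend removed. Small RNA genes were also mixed, with 15 of 48 higher, 9 lower and a median close to 0, and 10 higher and 11 lower (median -0.07) with the length trend removed. The extreme members were bbx (1.30) upward and CG10880 (-1.24) downward. Counts of piwi (chr2L:10982205-10987420, minus strand), the nuclear piRNA effector, were 703, 523 and 399 in ORB2 IP, against 262, 300 and 173 in control IP, with ORB2 IP wholly above control IP (log2 fold change 1.14 ± 0.25 (SE), adjusted p = 0.0053). The Dicer genes Dcr-1 (0.80) and Dcr-2 (0.68) and the Argonaute AGO1 (0.59) rose. The double-stranded-RNA-binding proteins pasha (-1.03), partner of Drosha, and r2d2 (-0.98), partner of Dicer-2, fell.

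Translation factors stayed near background. Of 46 tested, 7 were higher and 8 (5 leaving out ORB2 IP replicate 2, 5 leaving out control IP replicate 2) lower, with a median of -0.07, and 5 higher and 9 lower (median 0.10) with the length trend removed. The scaffold gene eIF4G2 (chr3R:23808285-23819237, minus strand), a germ-line paralog of eIF4G, had 1048, 3022 and 1217 in ORB2 IP, against 232, 271 and 170.2 in control IP. Its ORB2 IP libraries lay well apart from control IP (log2 fold change 2.82 ± 0.33 (SE), adjusted p = 3.91e-04). The cap-binding genes eIF4E1 (0.76) and eIF4EHP (0.83) and the scaffold eIF4G1 (0.85) rose. The small factors eIF1 (-0.93), eIF2beta (-0.98) and eEF1delta (-1.15) fell.

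Aminoacyl-tRNA synthetases, the enzymes that charge tRNAs, moved upward as a class. Of 34 tested members 14 (5 leaving out ORB2 IP replicate 1, 8 leaving out ORB2 IP replicate 2, 6 leaving out control IP replicate 3) were higher (41.2%) and 0 were lower. The median was 0.43, and 0.36 with the length trend removed, when 9 were higher and 2 lower. Library medians were 0.54, 0.53 and 0.25 in ORB2 IP, against 0.08, -0.02 and 0.00 in control IP, with all ORB2 IP libraries above all control IP libraries. Cytosolic enzymes gave 10 higher of 21 and mitochondrial ones 4 of 13, and 8 and 1 with the length trend removed. For LeuRS (chr2L:3510328-3514656, minus strand) the counts were 437, 294 and 212 in ORB2 IP, against 161, 173 and 99.5 in control IP, with no overlap between groups (log2 fold change 1.09 ± 0.28 (SE), adjusted p = 0.01). MetRS (0.97), ArgRS (0.94) and the fused GluProRS (0.84) were also called.

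Cytoplasmic ribosomal proteins gave a count that depended on which library was left out. Of 86 tested, 1 was higher and 3 were lower, far below the background both ways. The number higher was 37 leaving out ORB2 IP replicate 1, 3 leaving out control IP replicate 3, 0 leaving out any of the other libraries, and 9 with the replicate block. The library medians were -0.15, 0.38 and 0.79 in ORB2 IP, against 0.00, -0.21 and 0.20 in control IP, so ORB2 IP replicate 1 lay within the control IP range and the others above it. Shares of normalized counts in ORB2 IP are lowered by the genes at least 8-fold higher there. Cytoplasmic ribosomal protein genes held 7.89%, 8.33% and 13.3% in ORB2 IP, against 9.62%, 8.9% and 11.4% in control IP. RpL32 shows the pattern, with counts of 3239, 6323 and 11565 in ORB2 IP, against 3653, 3350 and 5408 in control IP and overlapping groups (log2 fold change 0.61 ± 0.38 (SE), adjusted p = 0.214). The called increase was RpLP2 (0.79), and the decreases were the divergent copies RpS15Ab (-1.24), RpLP0-like (-1.08) and RpL24-like (-0.93). Since these transcripts are short (median 882 nt), removing the length trend changed the class median to 0.85, against 0.35 as deposited, with 67 members higher and 2 lower.

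Ribosome biogenesis genes fell more often than background. Of 41 tested, 7 (1 to 4 with any 1 library other than ORB2 IP replicate 3 or control IP replicate 1 left out) were higher and 16 (9 leaving out control IP replicate 1, 9 leaving out control IP replicate 2) lower, with a median of -0.36, and 7 higher and 10 lower (median -0.23) with the length trend removed. The nucleolar genes vito (-1.32) and wcd (-1.26), the snoRNP protein NHP2 (-1.23) and the methyltransferase Fib (-0.66) were lower. Higher were Nop17l (1.14), the export adaptor Nmd3 (0.70) and the pseudouridine synthase Nop60B (0.63). Rrp1, matched to the list by name, encodes a DNA repair nuclease and is not a ribosome biogenesis gene.

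**Figure D3:**
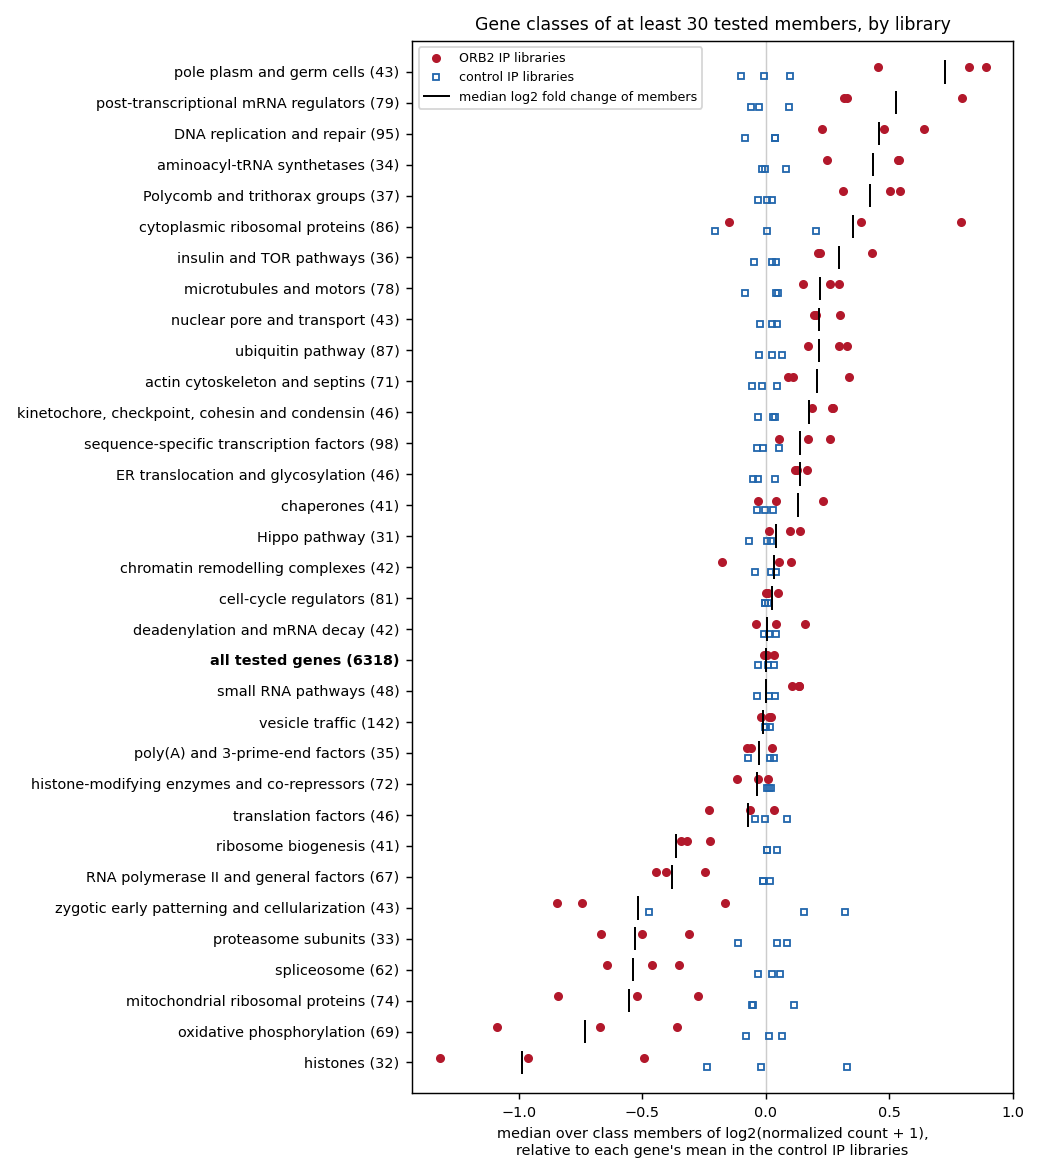
Median over class members of the log2 value relative to each gene's control IP mean, for each ORB2 IP library (red circles) and control IP library (blue open squares), in reported classes of at least 30 tested members, with the median fold change of the members as a black tick. All 3 ORB2 IP libraries lie above the control IP libraries for pole plasm, DNA replication and aminoacyl-tRNA synthetase genes, and below them for oxidative phosphorylation and spliceosome genes, while cytoplasmic ribosomal proteins run from -0.15 to 0.79.

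Nuclear genes for oxidative phosphorylation fell most often of all classes with at least 15 members. Of 69 tested members, 46 (29 leaving out control IP replicate 1, 29 leaving out control IP replicate 3) were lower (66.7%) and 2 (1 with the replicate block) higher, with a median of -0.73. Lower members numbered 27 of 33 in complex I, 4 of 8 in complex III, 6 of 9 in complex IV and 7 of 12 in the ATP synthase. Once the length trend was removed these were 9, 2, 2 and 5. Medians in single libraries were -1.09, -0.67 and -0.36 in ORB2 IP, against 0.07, -0.08 and 0.01 in control IP, and ORB2 IP replicate 3 was again the nearest to control IP. The class took 1.37%, 1.3% and 1.9% of the normalized counts in ORB2 IP, against 3.2%, 3.18% and 3.36% in control IP. The ORB2 IP shares are lowered by the genes at least 8-fold higher there, which held 28.4% to 39.5% of its counts. The largest decrease was ATPsyndelta (chrX:10212970-10217393, plus strand), an F1 subunit, at 1064, 897 and 1538 in ORB2 IP, against 3075, 2784 and 2678 in control IP, with every ORB2 IP library below every control IP library (log2 fold change -1.32 ± 0.21 (SE), adjusted p = 0.0016). Against the class, SdhA (chr2R:19391863-19395971, minus strand), the flavoprotein of complex II, had 457, 415 and 309 in ORB2 IP, against 194, 233 and 165 in control IP, the groups being fully apart in the other direction (log2 fold change 0.99 ± 0.20 (SE), adjusted p = 0.0043). UQCR-C2, a core protein of complex III, rose as well (0.60). Their transcripts were 2750 nt (SdhA) and 1686 nt (UQCR-C2) long, against a class median of 807 nt. After removal of the length trend 19 members were lower, 2 higher, and the median was -0.17. The input libraries were not part of the comparison. In them ATPsyndelta had 1142, 956 and 1474, within the range of its ORB2 IP counts. SdhA had 593, 858 and 769 in input, above both groups. A loss or gain against control IP is therefore not one against input.

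Mitochondrial ribosomal proteins also fell as deposited, but not after the length trend was taken out. Of 74 tested, 36 (20 leaving out control IP replicate 1) were lower (48.6%) and 1, mRpL21 (0.48), was higher, with a median of -0.55 and mRpL36 (-1.18) the lowest. Without the trend the median was 0.04, with 4 lower and 9 higher. Their transcripts had a median length of 783 nt and 3′UTRs of 64 nt. Of 13 import genes, 2 were higher and 4 (2 leaving out control IP replicate 1, 2 leaving out control IP replicate 3) lower, and 3 higher and 0 lower (median 0.16) with the length trend removed. The receptor Tom70 (0.92) and the channel Tom40 (0.44) rose, while Tim9a (-1.08), Tom7 (-0.85), Roe1 (-0.83) and Tom20 (-0.53) fell. Enzymes of glycolysis and the citrate cycle went the other way from the respiratory chain. Of 27, 9 (5 leaving out control IP replicate 1, 4 leaving out control IP replicate 2) were higher and 3 (0 to 1 with any 1 library other than ORB2 IP replicate 1 or ORB2 IP replicate 3 left out) lower, with a median of 0.14, and 10 higher and 3 lower (median 0.21) with the length trend removed. Hexokinase Hex-A (1.13), Pgi (1.09) and phosphofructokinase Pfk (0.47) rose, and Pglym78 (-0.61) and the aldolase gene Ald (-0.57) fell. Peroxisome biogenesis gave 1 (4 with the replicate block) higher and 1 (2 with the replicate block) lower of 14, the genes Pex5 (0.95) and Pex19 (-0.56), and 3 higher and 0 lower (median 0.15) with the length trend removed.

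The proteasome divided along its structure. Of 33 tested subunits 18 (8 leaving out ORB2 IP replicate 2, 9 leaving out control IP replicate 1, 8 leaving out control IP replicate 3) were lower (54.5%) and 2 higher. In the 20S core, the barrel that holds the proteolytic sites, 13 of 14 were lower and 0 higher. The 19S non-ATPase subunits gave 3 lower and 2 higher of 12, and the ATPases 1 lower of 6. Core transcripts had a median length of 971 nt, against 1536 nt for the 19S non-ATPase subunits. With the length trend removed no core subunit was called lower, and the class gave 4 higher and 0 lower. The scaffold subunit Rpn2 (chr3R:29153524-29157255, plus strand) had 688, 662 and 472 in ORB2 IP, against 319.9, 295 and 226 in control IP, fully above control IP (log2 fold change 1.11 ± 0.20 (SE), adjusted p = 0.0026). The core subunit Prosbeta6 fell most among the members that met the naming rule (-0.90). Across the 33 subunits, Spearman correlation between transcript length and log2 fold change was 0.82, against 0.53 over all genes.

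Ubiquitin pathway genes divided by enzyme type. Of 87 tested, 31 (17 leaving out control IP replicate 3) were higher and 19 lower, and 20 higher and 22 lower (median -0.11) with the length trend removed. Deubiquitinases gave 11 higher and 1 lower of 19, and E2 conjugating enzymes 1 higher and 6 lower of 10. The COP9 signalosome, which removes NEDD8 from cullins, gave 5 lower of 7 and none higher. Without the length trend the deubiquitinases gave 7 higher and 3 lower, the E2 enzymes 1 and 6, and the signalosome 4 lower. The ligase gene ctrip (chr3R:4786284-4812096, minus strand) led the gains with 2371, 3834 and 2426 in ORB2 IP, against 619, 711 and 410.3 in control IP, all ORB2 IP libraries standing clear of control IP (log2 fold change 2.31 ± 0.24 (SE), adjusted p = 1.45e-04). SkpA, the adaptor of cullin-based ligases, fell most (-1.36).

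In the SUMO pathway, 5 of 9 members were lower and 1 higher, and the class gave 1 higher and 4 lower (median -0.39) with the length trend removed. The protease gene velo (chr3L:6744426-6752752, minus strand) had 30279, 52001 and 32449 in ORB2 IP, against 835, 772 and 857 in control IP, wholly above control IP (log2 fold change 5.50 ± 0.25 (SE), adjusted p = 2.29e-08). The modifier smt3 (-0.98), its activating subunit Aos1 (-0.53), the conjugating enzyme lwr (-1.22), the ligase cerv (-1.25) and the SUMO-targeted ubiquitin ligase dgrn (-0.52) fell. With 1 library left out, 2 to 5 of these were lower. Autophagy genes were rarely called, with Atg17 (1.05) and Uvrag (0.69) higher and the ubiquitin-like Atg8a (-1.36), Atg3 (-1.01) and Atg5 (-0.81) lower among 22, and 1 higher and 5 lower (median -0.13) with the length trend removed.

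Chaperones showed no common direction, at 10 (6 leaving out control IP replicate 3) higher and 11 lower of 41, and 11 higher and 11 lower (median 0.07) with the length trend removed, yet their complexes differed. Prefoldin, which hands nascent actin and tubulin to the chaperonin, gave 5 lower of 6, and the CCT chaperonin that receives them gave 4 higher of 8 and none lower. The medians were -1.01 and 0.46, and with the length trend removed -0.46 and 0.47, with 5 lower and 4 higher. The co-chaperone gene Stip1 (chr2L:295122-297449, plus strand), which links the Hsp70 and Hsp90 chaperones, had 983, 943 and 624 in ORB2 IP, against 2255, 2336 and 3517 in control IP, every ORB2 IP library below control IP (log2 fold change -1.67 ± 0.23 (SE), adjusted p = 8.59e-04). Hsc70Cb, an Hsp110-type chaperone gene, gained most (1.02). Hsp83, the fly Hsp90 gene, rose (0.64), as did the mitochondrial chaperonin Hsp60A (0.94).

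Splicing factors lost broadly. Of 62 tested, 30 were lower (48.4%) and 3 higher, with a median of -0.54. With the length trend removed 24 were lower and 2 higher (median -0.36). The library medians were -0.46, -0.64 and -0.35 in ORB2 IP, against 0.03, -0.03 and 0.06 in control IP, with no overlap between groups. In a group of 7 SR protein genes drawn up after values were seen, all 7 were lower, and 7 with the length trend removed. Srp54, a further SR-family splicing gene of the class that this group leaves out, rose (0.78). The median of the group was -0.99 as deposited and -1.13 without the trend. Of the Sm core proteins 5 of 6 were lower, but 1 with the length trend removed. Against the class, hfp (chr3L:1496853-1502590, minus strand), the fly PUF60 gene, had 1035, 1831 and 1455 in ORB2 IP, against 217, 253 and 343 in control IP, wholly above control IP (log2 fold change 2.39 ± 0.23 (SE), adjusted p = 6.15e-05).

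Genes of the transcription machinery also fell often. Of 67 RNA polymerase II and general factor genes, 28 were lower (41.8%) and 7 higher, with a median of -0.38, and 8 higher and 23 lower (median -0.30) with the length trend removed. The cyclin T gene CycT, of the kinase that releases paused polymerase, gained most (1.23). The polymerase subunits gave 9 lower of 12 and 1 higher, the largest subunit RpII215 (0.47). After length correction 5 were lower and 0 higher. Rpb11 (chr2L:17409698-17410406, minus strand), a small subunit, had 299, 234 and 494 in ORB2 IP, against 1091, 1009 and 863 in control IP, with all ORB2 IP libraries below control IP (log2 fold change -1.59 ± 0.24 (SE), adjusted p = 0.0014). The TATA-binding protein Tbp (-0.99) and TfIIB (-0.93) also fell. Mediator gave 4 (2 leaving out control IP replicate 1, 2 leaving out control IP replicate 2, 2 leaving out control IP replicate 3) higher and 7 lower of 27, and 1 higher and 4 lower (median 0.08) with the length trend removed. Its kinase-module subunits skd (1.02) and kto (0.70) rose, while CycC of the same module (-0.69) and MED11 (-1.28) fell.

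Chromatin regulators parted by group. Polycomb and trithorax group genes, which keep developmental genes silent or active, gave 15 higher (40.5%) and 4 (1 leaving out ORB2 IP replicate 2, 2 leaving out control IP replicate 2, 2 leaving out control IP replicate 3) lower of 37. The median was 0.42, and 0.11 with the length trend removed, when 11 were higher and 8 lower. Asx (chr2R:14503958-14512493, plus strand), a subunit of the H2A deubiquitinase, had 3137, 6440 and 5608 in ORB2 IP, against 168, 171 and 128 in control IP, a separation of over 10-fold in every library (log2 fold change 4.96 ± 0.25 (SE), adjusted p = 7.37e-08). The PRC1 gene ph-d (chrX:2115727-2123286, minus strand) had 939, 2533 and 1832 in ORB2 IP, against 141, 137 and 165 in control IP, also wholly above control IP (log2 fold change 3.46 ± 0.29 (SE), adjusted p = 1.55e-05). Its near-identical neighbour ph-p can share reads with it, so the value of ph-d alone is uncertain. Also higher were corto (3.23), kis (2.72), sxc, the O-GlcNAc transferase gene (2.01), Pc (1.13) and Su(z)12 (1.06). The BTB-domain gene lolal fell most (-0.98), and the PRC1 ubiquitin ligase Sce (-0.74) and the DNA-binding recruiter pho (-0.59) fell. The H3K27 methyltransferase E(z) (0.50) did not pass the test.

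Chromatin remodelling complexes were close to background in count, at 10 (4 to 6 with any 1 library other than ORB2 IP replicate 1 or ORB2 IP replicate 3 left out) higher and 11 lower of 42, and 4 higher and 16 lower (median -0.25) with the length trend removed. Gas41 fell most (-1.30). Histone-modifying enzymes and co-repressors were too, at 20 (12 leaving out ORB2 IP replicate 2, 12 leaving out control IP replicate 3) higher and 18 (11 leaving out control IP replicate 3) lower of 72, and 11 higher and 24 lower (median -0.28) with the length trend removed. The steroid-receptor coactivator gene tai (chr2L:9166778-9250211, plus strand) gained most, with 3191, 7639 and 4405 in ORB2 IP, against 46.9, 40.7 and 37.8 in control IP and no overlap between groups (log2 fold change 6.80 ± 0.27 (SE), adjusted p = 6.53e-09). The acetyltransferase nej, the fly CBP gene (5.44), HDAC4 (3.91) and the co-repressor Smr (3.18) rose, while the deacetylase HDAC1 (-0.57) and SAGA subunits Sgf29 (-1.39) and Sgf11 (-0.65) fell. All 3 HP1 genes listed were lower, HP1b (-1.07), HP1c (-1.19) and the gene of HP1a, and 3 were lower with the length trend removed. For HP1c (chr3R:22745620-22746605, plus strand), a relative of HP1a found in euchromatin, the counts were 168, 182 and 185 in ORB2 IP, against 403, 403 and 415 in control IP. ORB2 IP lay wholly below control IP (log2 fold change -1.19 ± 0.16 (SE), adjusted p = 8.59e-04). Spearman correlation between transcript length and fold change was 0.76 across the remodelling genes and 0.68 across the modifying enzymes.

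Insulator proteins lost and kept their loss after length was taken out. Of 16 tested, 8 were lower (50%) and 1 (2 with the replicate block), Chro (0.56), higher, with a median of -0.63. Once length was taken out 10 were lower and 0 higher (median -0.55). Ibf1 (chr3R:9258964-9260400, plus strand), a partner of the insulator protein CP190, had 319, 126 and 305 in ORB2 IP, against 843, 782 and 619.9 in control IP, with ORB2 IP wholly below control IP (log2 fold change -1.68 ± 0.30 (SE), adjusted p = 0.0026). Ibf2 (-1.21), Elba3 (-1.17), insv (-1.13), BEAF-32 (-0.90) and su(Hw) (-0.71) also fell, whereas CTCF (-0.24), Cp190 (0.44) and mod(mdg4) (-0.28) did not pass the test.

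Sequence-specific transcription factors held 30 higher and 16 (10 leaving out control IP replicate 2) lower of 98, and 22 higher and 24 lower with the length trend removed. The widest separation was that of NFAT (chrX:13624745-13664568, plus strand), the fly gene of a calcineurin-regulated factor family, with 92654, 208049 and 131499 in ORB2 IP, against 209, 228 and 216 in control IP (log2 fold change 9.29 ± 0.28 (SE), adjusted p = 2.53e-09). ATbp (7.38) and Camta (6.44), a calmodulin-binding activator gene, followed, and M1BP, a promoter-binding factor gene, fell most (-1.16). Partners of the Myc network parted. Myc (1.37) and its antagonist Mnt (1.33) rose, whereas their shared dimer partner Max (-1.15) and the related bigmax (-1.07) fell. Smaller gains included the nuclear receptor genes Hr39 (1.58), Hr96 (1.44), Hnf4 (1.27) and usp (1.15), while EcR, the ecdysone receptor that pairs with usp, fell (-0.56). The CCAAT-box subunits Nf-YA (-0.81) and Nf-YB (-0.95) fell.

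Histone transcripts had the lowest class median among classes of at least 30 members, but few single genes passed. Of 32 tested, 9 (22 leaving out ORB2 IP replicate 3, 5 leaving out control IP replicate 1) were lower and 0 higher, with a median of -0.99. Per library, the class medians were -1.32, -0.96 and -0.49 in ORB2 IP, against 0.33, -0.02 and -0.24 in control IP, and the control IP libraries themselves spread over more than 0.5 log2 units. The class held 4.01%, 4.02% and 5.86% of normalized counts in ORB2 IP, against 14.1%, 11.8% and 10.4% in control IP. Part of this difference arises because genes at least 8-fold higher held 28.4% to 39.5% of the ORB2 IP counts. With the length trend removed the median was -0.51 and 5 were lower. Copies of the replication-dependent histone genes are nearly identical, so values of single copies, such as that of the lowest, His3:CG33818 (-1.34), are uncertain. The single-copy variant His3.3A (chr2L:5055058-5056149, plus strand), a replacement H3, had 906, 1406 and 1647 in ORB2 IP, against 3112, 2796 and 2518 in control IP, with ORB2 IP wholly below control IP (log2 fold change -1.13 ± 0.23 (SE), adjusted p = 0.0039). The other variants His3.3B (-1.09), His2Av (-1.06) and the embryonic linker histone BigH1 (-0.87) fell as well.

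DNA replication and repair genes gained. Of 95 tested, 40 (25 leaving out ORB2 IP replicate 1, 21 leaving out control IP replicate 3) were higher (42.1%) and 12 (7 leaving out control IP replicate 3) lower, with a median of 0.46 and library medians of 0.64, 0.48 and 0.23 in ORB2 IP, against 0.04, 0.04 and -0.09 in control IP. After length correction 27 were higher and 10 lower (median 0.31). DNA polymerase subunits gave 6 higher of 10 and none lower, and 7 with the length trend removed. The catalytic subunit DNApol-delta (chr3L:15984322-15987815, minus strand) had 248, 265 and 124 in ORB2 IP, against 64.5, 97.0 and 38.5 in control IP. Its ORB2 IP libraries exceeded all control IP libraries, replicate 3 by the least (log2 fold change 1.68 ± 0.35 (SE), adjusted p = 0.0048). The mismatch-repair gene Msh6 (chr3L:15154233-15158562, minus strand) had 626, 637 and 309.9 in ORB2 IP, against 207, 264 and 144 in control IP, with the same order of libraries (log2 fold change 1.32 ± 0.29 (SE), adjusted p = 0.0056). The topoisomerases Top3alpha (1.58), Top3beta (1.31) and Top2 (0.77), both large CAF-1 chromatin assembly subunits, Caf1-105 (1.18) and Caf1-180 (1.09), and the checkpoint kinases mei-41, fly ATR (1.12), and tefu, fly ATM (1.00), rose. The replicative helicase MCM2-7 gave 4 higher of 6, but 1 with the length trend removed. The licensing inhibitor geminin (-1.33), the single-strand-binding subunit RPA3 (-1.13) and GINS subunits Psf1 (-0.85) and Sld5 (-0.65) fell.

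Cell-cycle regulators had 24 (15 leaving out ORB2 IP replicate 1, 15 leaving out ORB2 IP replicate 2, 12 leaving out control IP replicate 3) higher and 13 lower of 81, with a median of 0.03, and 16 higher and 16 lower (median -0.03) with the length trend removed. CycT, listed here as well, gained most. The anaphase-promoting complex and its activators gave 6 higher of 12 and none lower, and 4 with the length trend removed. Single genes that fell included the securin gene pim (-1.07), geminin and the kinase genes aurA (-0.86), aurB (-0.83) and Cdk1 (-0.63), picked as examples. The egg-specific kinase regulators gnu (0.53) and plu (-1.07), which act with png at egg activation, parted, and png (0.37) did not pass the test. Kinetochore, cohesin and condensin genes held 14 (4 to 9 with any 1 library other than ORB2 IP replicate 3 left out) higher and 11 (7 leaving out control IP replicate 1) lower of 46, and 6 higher and 8 lower (median -0.07) with the length trend removed. The checkpoint complex of rod, Zw10 and Zwilch gave 3 higher of 3, and 3 with the length trend removed. The microtubule-binding KMN network gave 6 lower and 1 higher of 8, and 3 lower and 1 higher with the length trend removed. Zw10 (chrX:2604197-2606824, plus strand) had 368, 324 and 215 in ORB2 IP, against 143, 146 and 103 in control IP, with the groups apart (log2 fold change 1.18 ± 0.23 (SE), adjusted p = 0.0038). Kmn2 fell (-1.29), and SMC ring proteins gave 4 higher of 5 but 0 with the length trend removed.

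Motors and microtubule regulators gained at 30 (18 leaving out control IP replicate 3) of 78, with 14 lower, and 17 and 12 with the length trend removed. Patronin (chr2R:17519024-17535866, minus strand), whose product caps microtubule minus ends, gained most, with 34037, 79569 and 54153 in ORB2 IP, against 269.8, 228 and 192 in control IP, all ORB2 IP libraries over 100 times the control IP libraries (log2 fold change 7.85 ± 0.29 (SE), adjusted p = 3.67e-09). Kinesins gave 8 higher of 16 and none lower, and 4 and 1 with the length trend removed. The dynein motor and its adaptor dynactin split by subunit as deposited. Dynactin gave 1 higher and 4 lower of 6, but 2 higher and 1 lower with the length trend removed. The dynein heavy chain Dhc64C (1.04) and light intermediate chain Dlic (1.13) rose, and the light chains robl (-0.88) and ctp (-0.68) fell. In dynactin, DCTN1-p150 (chr3L:13929387-13934656, plus strand), the arm that binds microtubules, had 433, 366 and 262 in ORB2 IP, against 136, 184 and 91.6 in control IP, ORB2 IP wholly above control IP (log2 fold change 1.39 ± 0.26 (SE), adjusted p = 0.0032). The small subunit DCTN3-p24 (chr2R:23061420-23062593, minus strand) had 154, 132 and 202 in ORB2 IP, against 482, 439.5 and 393 in control IP, ORB2 IP wholly below (log2 fold change -1.44 ± 0.20 (SE), adjusted p = 8.59e-04). The transport pair egl (0.87) and BicD (-0.70), which link localized mRNAs to dynein, also went in opposite directions. The gamma-tubulin ring gave 4 higher of 7 and augmin, which branches spindle microtubules, 4 lower of 9. Without the trend on length the ring gave 2 higher, and augmin 1 higher and 1 lower. Centrosome genes had 11 (3 to 7 with any 1 library other than ORB2 IP replicate 3 left out) higher and 3 lower of 29, the higher including spd-2 (0.92), Sas-6 (0.71) and asl (0.61), and Rcd4 fell most (-1.07). Their count with the length trend removed was 4 higher and 3 lower.

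In the actin cytoskeleton 20 (10 leaving out ORB2 IP replicate 2, 11 leaving out control IP replicate 3) of 71 were higher and 10 lower, and 11 higher and 17 lower (median -0.09) with the length trend removed. Myosin heavy chains gave 3 higher and 0 lower of 7, with didum (1.36) and jar (1.20) among the higher. With the length trend removed they gave 2 higher and 1 lower of 6. The myosin light chains Mlc-c (-1.23) and sqh (-1.21) fell. Profilin (chic, -1.07) and cofilin (tsr, -1.03), small actin-binding proteins, fell, and the WAVE-complex genes SCAR (0.78) and Hem (0.81) rose.

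**Figure D4:**
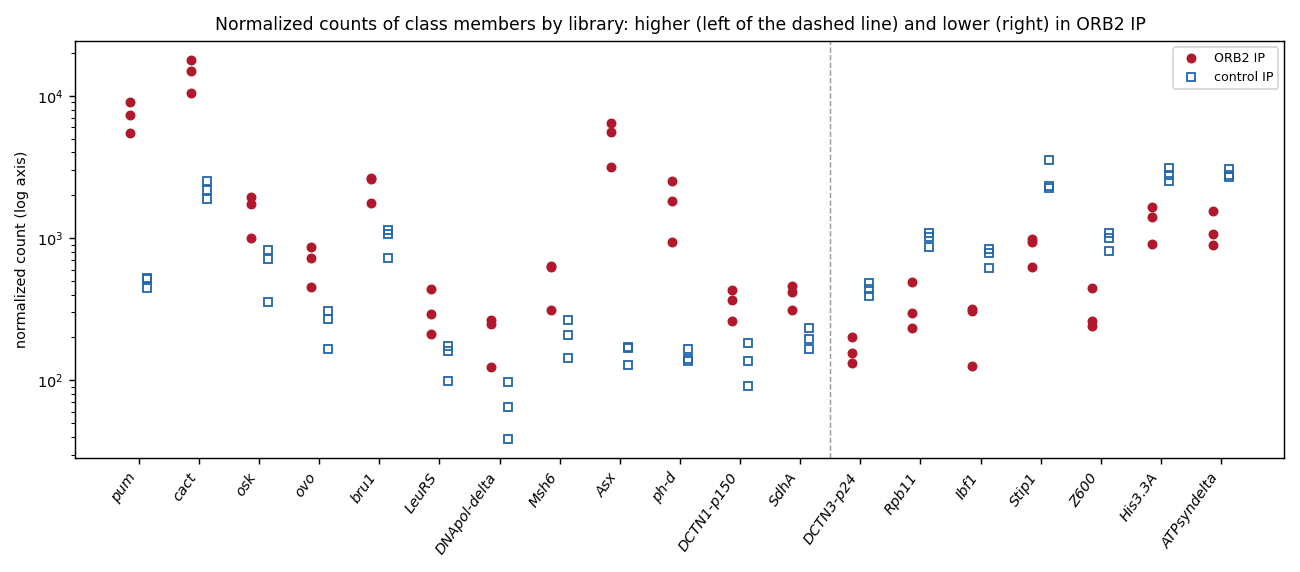
Normalized counts (log axis) of 19 class members in each ORB2 IP library (red circles, left of each pair) and control IP library (blue open squares). The 12 genes left of the dashed line are higher in ORB2 IP and the 7 to its right lower, with no overlap between the groups for any of them.

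Membrane traffic as a whole followed the background, at 29 (17 leaving out ORB2 IP replicate 1, 17 leaving out ORB2 IP replicate 2, 13 leaving out control IP replicate 3) higher and 35 (22 leaving out control IP replicate 3) lower of 142 with a median of -0.01, and 21 higher and 23 lower (median 0.02) with the length trend removed. CG2023 fell most (-1.31). Tethers and fusion proteins differed within it. The exocyst, which tethers vesicles to the plasma membrane, gave 5 higher of 8, none lower, and a median of 0.72. SNARE proteins of the syntaxin and SNAP type gave 9 lower of 11, none higher, and a median of -0.71. With the length trend removed these counts were 3 higher and 6 lower. The endocytic adaptor gene AP-2mu (chr3R:22462455-22464603, plus strand) had 199, 209 and 151 in ORB2 IP, against 86.8, 76.3 and 67.2 in control IP, with the groups apart (log2 fold change 1.26 ± 0.21 (SE), adjusted p = 0.002). Its partner AP-2alpha also rose (1.15), and the clathrin light chain Clc fell (-1.20). Rab GTPases gave 6 lower and 1 higher of 23, and 5 and 3 with the length trend removed.

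At the endoplasmic reticulum 11 (3 to 6 with any 1 library other than ORB2 IP replicate 3 left out) of 46 were higher and 6 (3 leaving out control IP replicate 1) lower, and 13 and 0 with the length trend removed. Calnexin Cnx99A (1.17) and Srp72 (0.97) rose, and the oligosaccharyltransferase subunit Dad1 (-1.12) and Srp9 (-0.82) and Srp14 (-0.69) fell. Srp54, matched to this list by name, is the splicing gene described above. Nuclear pore and transport genes gave 10 (4 to 6 with any 1 library other than ORB2 IP replicate 3 left out) higher and 3 lower of 43, and 4 higher and 2 lower (median -0.06) with the length trend removed. As deposited the importin beta gene Fs(2)Ket (1.06) and the scaffold Nup188 (1.02) were higher and the channel nucleoporin Nup62 (-1.24) lower. Of 16 V-ATPase subunits 6 were higher and 2 lower, and 6 higher and 0 lower (median 0.32) with the length trend removed. Vha100-2 (1.07) led the gains as deposited and Vha14-1 (-0.94) the losses.

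Signalling pathways differed from each other. Hedgehog genes gave 8 (5 leaving out control IP replicate 3) higher and 0 (1 with the replicate block) lower of 17 with a median of 0.52, and 4 higher and 2 lower (median 0.10) with the length trend removed. They included the co-receptor boi (1.20) and the transducer smo (0.87). Insulin and TOR genes gave 12 higher and 2 (4 with the replicate block) lower of 36 with a median of 0.30, and 7 higher and 4 lower (median 0.07) with the length trend removed. Both scaffold genes of the TOR complexes, raptor (0.93) and rictor (1.17), the kinases Tor (0.54) and Akt1 (1.11), and the transcription factor REPTOR (1.02) rose, while the TOR subunit Lst8 (-0.49) and the REPTOR partner REPTOR-BP (-1.11) fell. For Pi3K21B (chr2L:297880-305233, plus strand), the adaptor of PI3 kinase, the counts were 453, 378 and 204.9 in ORB2 IP, against 138, 173 and 71.6 in control IP, with the groups apart (log2 fold change 1.45 ± 0.34 (SE), adjusted p = 0.0071).

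Wnt genes gave 9 (5 leaving out ORB2 IP replicate 2, 4 leaving out control IP replicate 1, 5 leaving out control IP replicate 3) higher and 1 lower of 28. The transducer dsh (1.29), the co-receptor arr (0.94) and the receptor fz (0.62) rose, and the scaffold Axn fell (-0.60). Without the trend on length the Wnt counts turned to 2 higher and 10 lower. Ras-MAPK genes behaved alike, with 7 (3 leaving out ORB2 IP replicate 2, 3 leaving out control IP replicate 3) higher and 4 lower of 28, and 1 and 10 with the length trend removed. Its core GTPase and kinase, Ras85D (-0.57) and Raf (-0.83), fell, whereas the MEK gene Dsor1 (0.83) and the scaffold cnk (0.96) rose. The extreme members were the ERK phosphatase gene Mkp3 (1.00) upward and ave (-1.31), a partner of cnk, downward. JNK genes gave 7 (4 leaving out ORB2 IP replicate 1) higher and 1 (2 with the replicate block), Tak1 (-0.62), lower of 22, and 3 higher and 3 lower (median 0.04) with the length trend removed. The kinase gene msn (chr3L:2554847-2586540, minus strand), which acts above JNK and is listed under Hippo too, had 633988, 1085148 and 804010 in ORB2 IP, against 839.5, 816 and 755 in control IP, the widest separation of any class member (log2 fold change 9.996 ± 0.35 (SE), adjusted p = 3.51e-09). Other kinases above JNK rose by far less, slpr (0.99), Mekk1 (0.99), Ask1 (0.82), hep (0.62) and Mkk4 (0.57). JNK itself (bsk, -0.17) did not pass the test. Notch genes gave 7 (4 leaving out ORB2 IP replicate 2) higher and 3 (1 leaving out control IP replicate 3) lower of 21, and 4 higher and 2 lower (median 0.09) with the length trend removed. Called as deposited were the receptor N (0.95) and the ligand-activating ligase mib1 (1.45) upward and the gamma-secretase subunit pen-2 (-0.89) downward. Below the background share upward were the Hippo pathway, with 5 (3 leaving out control IP replicate 3) higher and 1 (2 with the replicate block) lower of 31, and TGF-beta, with 2 higher and 4 lower of 17. Hippo gave 2 higher and 7 lower (median -0.27) with the length trend removed, and TGF-beta gave 2 higher and 5 lower (median -0.40) with the length trend removed. The phosphatase subunit mts (-0.83) was the Hippo gene called lower. In TGF-beta the transducer Smox rose (1.35) and Fkbp12 fell (-1.13).

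Transcripts made by the embryo's own genome in the first hours had a low class median, but their share called lower, 23.3%, was near the background of 21.6%. Of 43 zygotic patterning and cellularization genes tested, 10 (16 leaving out ORB2 IP replicate 3, 5 leaving out control IP replicate 1) were lower and 1, cnc (0.79), was higher. The median was -0.52, and -0.53 with the length trend removed, when 7 were lower and 0 higher. The library medians were -0.85, -0.74 and -0.17 in ORB2 IP, against 0.32, 0.15 and -0.47 in control IP, so that control IP replicate 3 lay among the ORB2 IP libraries. The class was the scarcest in input, with a median of 5.54 TPM, against 38.2 TPM over all tested genes. Bro, a partner of Runt-family factors, fell most (-1.66). Z600 (chr3L:15509061-15509513, plus strand), which restrains the cell cycle at gastrulation, had 241, 262 and 445 in ORB2 IP, against 993, 1080 and 809 in control IP, with ORB2 IP wholly below control IP (log2 fold change -1.65 ± 0.23 (SE), adjusted p = 8.74e-04). Also lower were zen (-1.45), the dorsal homeobox gene, halo (-1.40), sisA, an X-chromosome-counting gene (-0.98), and bnk, which acts in cellularization (-0.99).

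Genes known only by a CG number, which make up much of the less-studied maternal mRNA, gave 283 (178 leaving out ORB2 IP replicate 1, 184 leaving out ORB2 IP replicate 2, 140 leaving out control IP replicate 3) higher (15.2%) and 455 lower (24.5%) of 1857. Their median was -0.14, and -0.02 with the length trend removed. The extreme members were CG14712 (8.65) and CG14441 (7.49) upward and CG43184 (-1.96) downward. For the list as a whole the median transcript was 1690 nt, against 2024 nt over all tested genes.

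Set side by side, the classes fell into kinds by what the length alternative did to them. Only examples are named here. The maternal patterning, germ-cell, aminoacyl-tRNA synthetase and DNA replication classes kept medians of 0.31 to 0.59 above all genes. The patterning and germ-cell lists share members. V-ATPase subunits had 0.32, and cytoplasmic ribosomal proteins had 0.85. Insulator, zygotic and spliceosome classes kept medians of -0.36 to -0.55. Histones, at -0.99 as deposited, had -0.51. The Hedgehog, JNK, centrosome, and insulin and TOR classes dropped to medians of 0.04 to 0.10, and mitochondrial ribosomal proteins to 0.04. Removing the input-abundance trend together with length gave medians of 0.66 for maternal patterning, 0.63 for germ cells, 0.37 for aminoacyl-tRNA synthetases, -0.30 for the spliceosome and -0.10 for oxidative phosphorylation. Without ORB2 IP replicate 3 the medians were 0.91, 0.85, 0.58, -0.58 and -0.90 in the same order.

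**Figure D5:**
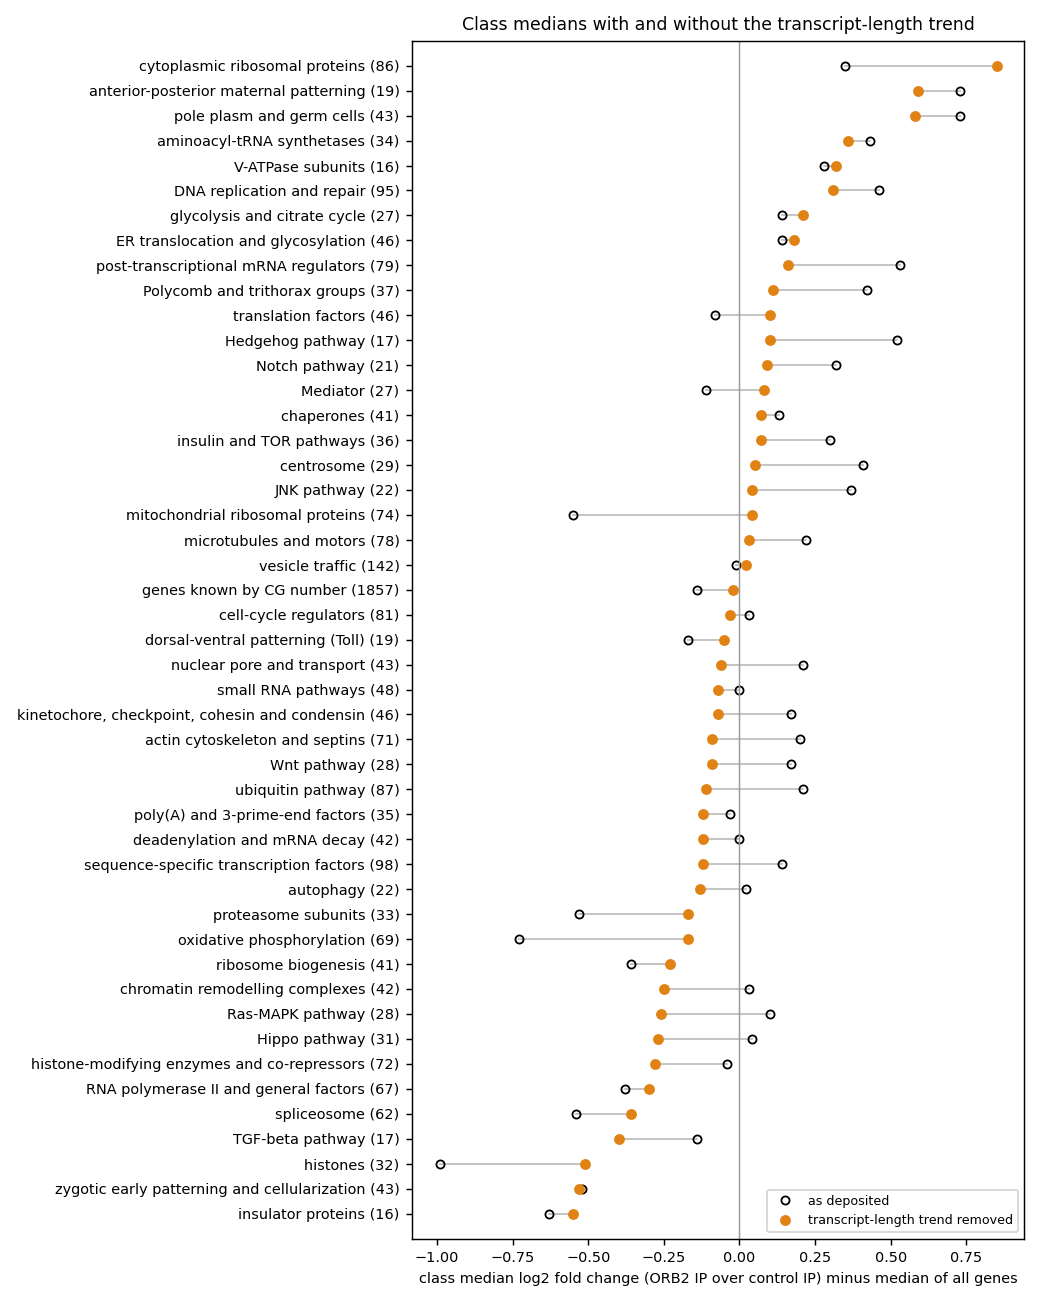
Class median log2 fold change (ORB2 IP over control IP) minus the median of all genes, as deposited (open circles) and with a smooth trend on transcript length removed from every library (orange), for reported classes with at least 15 tested members. Cytoplasmic ribosomal proteins move up to 0.85, mitochondrial ribosomal proteins move from -0.55 to 0.04, and maternal patterning and germ-cell genes stay above 0.5.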

How the data were processed

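The authors' deposited signal table gives normalized counts per gene for 9 libraries, and their deposited table of TPM (counts scaled to transcript length and depth) gives the same genes. The submitters' processing notes name DESeq2 1.42.1, Salmon 1.9.1 and Trim Galore 0.6.5 without saying which step each served, and the genome build is not given in the sources used here. Only normalized values were used, so no count model was fitted. Values were log2-transformed after adding 1, genes with a mean of at least 10 were kept, and limma 3.58.1 in R 4.3.3 (trend, Benjamini-Hochberg adjusted p below 0.05) was fitted to the 6 libraries of ORB2 IP and control IP. The fit was tested on simulated data. Classes were lists of symbols. Their members and the lists were chosen with earlier results of these data known, so they are described by counts and medians without a test. Described genes are orb2 and, in each class of at least 5 tested members, the called member with the largest change in each direction (of the next 2 in classes of at least 30, some), provided its mean reached 100 and its groups were apart. Results for 1 list and 1 further gene are not reported here. Further examples and the groups of subunits (complexes) were chosen after values were seen. Lengths and coordinates came from the Ensembl release 115 annotation of BDGP6.54, matched by gene symbol or identifier for 6394 of 6440 genes. Deviations of same-numbered libraries from their group means correlated at 0.102, 0.23 and 0.276, and those of differently numbered libraries at -0.339 to 0.079. Deviations cancel out within a group, which lowers the latter values. A pairing is thus not established, and the labels do not give one. Alternatives were other scalings, filters, pseudocounts and TPM values, each library left out, all 9 libraries, a replicate block and, chosen after seeing the data, removal of trends on transcript length and input abundance. Precision is limited by 3 libraries a group, and the original read depth is unknown.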

Additional observations from a re-analysis of the deposited data

How the results depend on the processing

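As deposited, 1316 genes were higher and 1366 lower, of which 501 and 432 at least 2-fold. No gene picked by the naming rule reversed its direction under any alternative run. The rule took called genes with the groups apart, so leaving out 1 library could not reverse them. The replicate block and the fit of all 9 libraries left fold changes as they were. Genes named as examples after their values were seen were not followed through the alternatives. Over all combinations of a rule-picked gene and an alternative, the call held in 3785 and was lost in 251. That tally is favoured by the selection of called genes with large changes. With libraries scaled to equal totals 383 genes were higher and 2179 lower (111 and 1204 at least 2-fold). With equal upper quartiles the 2-fold counts were 793 and 217. TPM values gave 708 lower genes with a pseudocount of 1 (2-fold 805 and 127) and 692 with 0.1 (2-fold 940 and 141). A fit of all 9 libraries called 891 lower. An adjusted p below 0.01 left 569 higher and 740 lower. A test against a 2-fold change (limma treat) left 32 higher and 0 lower, with 58 and 33 at an unadjusted p below 0.05. The cause of these changes was not tested. With 1 library left out, higher genes numbered 716 to 1492, those at least 2-fold higher 246 to 769 and at least 2-fold lower 345 to 697.

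The replicate block gave 1523 higher and 1501 lower genes. Counts of class members that it changed by more than 1.5 times are given with the classes. Class medians relative to all genes moved by less than the spread of the ORB2 IP libraries in 584 combinations of a class and an alternative, and by more in 76. Many of the 584 could hardly move. The replicate block and the fit of all 9 libraries keep the fold changes, and rescaling shifts nearly all genes alike. The spread is also a loose limit where the ORB2 IP libraries disagree. For cytoplasmic ribosomal proteins, 0.35 as deposited and 0.12 without ORB2 IP replicate 3 counted as unmoved. With 1 library left out class medians ranged from 0.084 to 0.16 for ER, from -0.089 to 0.067 for mRNA decay, from -0.095 to -0.011 for poly(A) factors, from -0.43 to -0.26 for ribosome biogenesis, from -0.052 to 0.18 for small RNA and from -0.86 to -0.42 for zygotic genes. A filter at a mean of 50 gave -0.92 for zygotic genes. Quantile normalization gave -0.21 for proteasome, 0.093 for translation factors, -0.13 for ribosome biogenesis, 0.035 for vesicle traffic, 0.34 for nuclear pore, -0.37 for spliceosome, -0.28 for RNA polymerase II, 0.052 for histone modifiers, 0.39 for ubiquitin, 0.125 for Hippo, -0.12 for poly(A) factors, 0.098 for small RNA, 0.37 for microtubules and 0.18 for cell cycle. 

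Removal of the length trend (chosen after seeing the data) reduced the 2-fold counts to 299 and 157, and gave class medians of 0.85 for cytoplasmic ribosomal proteins, 0.041 for mitochondrial ribosomal proteins, -0.17 for proteasome, -0.17 for oxidative phosphorylation, 0.10 for translation factors, -0.23 for ribosome biogenesis, 0.18 for ER, -0.061 for nuclear pore, -0.36 for spliceosome, 0.11 for Polycomb and trithorax, -0.25 for chromatin remodelling, -0.28 for histone modifiers, -0.12 for transcription factors, -0.11 for ubiquitin, 0.068 for insulin and TOR, -0.27 for Hippo, 0.155 for mRNA regulators, -0.12 for mRNA decay, -0.12 for poly(A) factors, -0.071 for small RNA, 0.031 for microtubules, -0.095 for actin, -0.034 for cell cycle, -0.068 for kinetochore, -0.51 for histones and -0.017 for CG-number genes. Removing input abundance as well left 290 and 136, with medians of 0.066 for mitochondrial ribosomal proteins, -0.060 for proteasome, -0.10 for oxidative phosphorylation, 0.19 for translation factors, -0.225 for ribosome biogenesis, 0.29 for ER, 0.046 for nuclear pore, -0.30 for spliceosome, -0.26 for RNA polymerase II, 0.12 for Polycomb and trithorax, -0.17 for chromatin remodelling, -0.32 for histone modifiers, -0.10 for transcription factors, -0.002 for ubiquitin, 0.037 for insulin and TOR, -0.25 for Hippo, 0.20 for mRNA regulators, -0.15 for mRNA decay, -0.14 for poly(A) factors, -0.062 for small RNA, 0.035 for microtubules, -0.043 for actin, 0.064 for cell cycle, -0.084 for kinetochore and -0.042 for CG-number genes. The planned comparison of 3′UTR motifs and glutamine content was not run. The original read depth is not known from normalized values, so precision rests on 3 libraries a group.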
